A study of Mus musculus with 4 samples.

Results

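Macrophages are resident phagocytes that clear dying cells and shape growing tissue, and 10 genes that mark them were followed in the mouse lower jaw. The genes, C1qa, C1qb, C1qc, Mrc1, Csf1r, Cd68, Adgre1, Cx3cr1, Lyz2 and Tyrobp, were taken by symbol from a table of 24972 gene rows. All 10 had a row and all 10 were tested. The samples were mandibular dental arches of mouse embryos at embryonic day 17.5, the tooth-bearing strip of the lower jaw, with 2 libraries of genotype Ascl5WTWT (wild type, sample codes 15 and 20) and 2 of Ascl5MutMut (mutant, sample codes 18 and 14). Mutant embryos carried 2 copies of a variant of Ascl5, a basic helix-loop-helix transcription factor gene, and wild-type embryos carried none. What the variant alters, the strain, and whether embryos were pooled are not given in the labels. Nothing says that the libraries came from separate litters or extractions, so each p-value reflects only how these samples scatter, technical scatter included. In bulk tissue, a change in the number of macrophages and a change in RNA per macrophage cannot be told apart.

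Tissue macrophages depend on the growth factor receptor Csf1r, whose ligands Csf1 and Il34 keep them alive. They are first seeded before birth from the yolk sac and fetal liver. Many display the F4/80 antigen (Adgre1), the mannose receptor (Mrc1) or the fractalkine receptor (Cx3cr1), make the complement starter C1q, and digest what they engulf in lysosomes that hold Cd68 and lysozyme. Csf1r, Tyrobp and Cd68 are also made by osteoclasts, the bone-resorbing cells of the same lineage, which are active in the bone around tooth germs.

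Values are normalized counts, and the 4 libraries summed to between 22134483 and 22578580. Each pair of values is given in the order 15, 20 for wild type and 18, 14 for mutant. Of 15 genes that mark the dental arch, 15 passed the filter on low values (a mean of at least 1). Among them were Krt14 of the oral epithelium and the tooth mesenchyme factor Barx1. The filter was passed by 17979 of all 24972 rows, so passing it says little about the tissue. Ascl5 was at 21.8 (library 15) and 37.3 (library 20) in wild type, against 10.6 (library 18) and 12.1 (library 14) in mutant. Wild-type library 15 was the only library with the X-inactivation RNA Xist at a high level (38619 against 5.005 to 12.7), so sex was not balanced between genotypes.

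Promoter sequence was available in the RefSeq tables (build GRCm38.p6, the assembly that mm10 denotes) for 6 of the 10 genes, Mrc1, C1qb, C1qc, Cx3cr1, Lyz2 and Cd68. It was searched on both strands over the 250 bases before each annotated start. The hexamer GAGGAA, the core recognised by PU.1 (Spi1), the factor that directs the macrophage lineage, was in 4 of 6 windows, against 23.3% of all 32851 promoter windows of that length. These 4, the windows that hold the hexamer, are shown, and those of Cx3cr1 and Lyz2, which lack it, are not. The 4 include the gene with the largest difference between genotypes (Mrc1) and the gene that lay lower in mutant (Cd68). Each is written 5′ to 3′ in the direction of the gene, with GAGGAA or its reverse complement in capitals. Bases that GENCODE M21 places inside the gene were left off. The windows are chr2:14229164-14229391, plus strand (Mrc1), chr4:136886201-136886450, minus strand (C1qb), chr4:136893066-136893164, minus strand (C1qc) and chr11:69666171-69666420, minus strand (Cd68).
Mrc1: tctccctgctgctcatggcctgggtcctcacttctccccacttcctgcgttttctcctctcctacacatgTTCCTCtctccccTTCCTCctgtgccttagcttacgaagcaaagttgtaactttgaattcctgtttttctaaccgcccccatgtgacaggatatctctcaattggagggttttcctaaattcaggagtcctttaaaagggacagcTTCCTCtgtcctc
C1qb: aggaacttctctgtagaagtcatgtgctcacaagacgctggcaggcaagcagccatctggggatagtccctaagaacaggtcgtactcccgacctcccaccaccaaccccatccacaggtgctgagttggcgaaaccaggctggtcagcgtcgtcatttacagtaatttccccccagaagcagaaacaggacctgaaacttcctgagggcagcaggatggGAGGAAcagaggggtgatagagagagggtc
C1qc: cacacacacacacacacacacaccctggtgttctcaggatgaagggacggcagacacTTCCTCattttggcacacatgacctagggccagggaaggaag
Cd68: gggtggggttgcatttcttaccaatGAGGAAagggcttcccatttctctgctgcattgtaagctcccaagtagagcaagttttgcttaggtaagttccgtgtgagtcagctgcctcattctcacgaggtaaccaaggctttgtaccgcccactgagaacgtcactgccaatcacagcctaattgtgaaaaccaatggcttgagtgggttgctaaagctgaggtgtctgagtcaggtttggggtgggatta

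Mrc1 held 3 copies of the hexamer, which began 180, 167 and 35 bases before the RefSeq start, all on the opposite strand. C1qb held 1 copy that began 30 bases before the start, C1qc 1 copy at 193 and Cd68 1 copy at 225. The E-box CAGCTG, which is its own reverse complement and a form bound by many basic helix-loop-helix factors, was in 2 of 6 windows (Cx3cr1 and Cd68) and in 13% of all windows. The whole Cx3cr1 window lies inside the gene as GENCODE M21 places it, and it overlaps exon sequence of Cx3cr1. The AP-1 sequence TGANTCA was in 1 of 6 (Cd68, where the copy farther from the start shares bases with the E-box) and in 6.75% of all windows, and TATAAA was in 0 of 6 and in 12.4%. These matches describe letters only, and binding was not measured.

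Across genotypes, 9 of the 10 macrophage genes had a higher mean in mutant and 1, Cd68, a lower one, where 50.6% of tested genes lay higher. In 6 of them, C1qa, C1qc, Mrc1, Adgre1, Cx3cr1 and Lyz2, both mutant libraries lay above both wild-type libraries. That is 60.0% of the genes, where 13.4% of 17979 tested genes lay higher with no overlap. None of the 10 passed the test at an adjusted p under 0.05 (limma), which 0.0111% of tested genes did, and 1, Mrc1, had an unadjusted p under 0.05 (4.27% of tested genes did). The median log2 fold change was 0.27 over the 10 genes and 0.0025 over all tested genes. Without wild-type 15, the library with high Xist, the median over the 10 genes was 0.12, and without wild-type 20 it was 0.44. The genes were read in the same 4 libraries, so their count is not 10 separate observations.

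**Figure D1:**
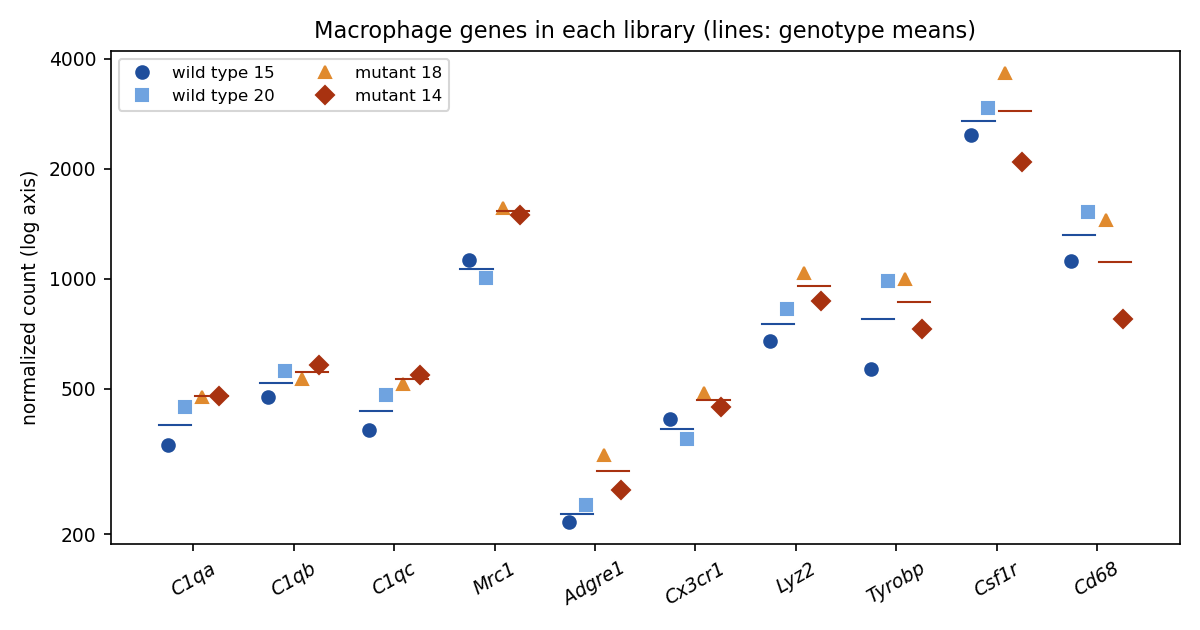
Normalized count (log axis) of each macrophage gene in each library, with wild type in blue, mutant in orange and red, and a line at each genotype mean. Mrc1 shows the widest gap, with mutant libraries at 1497 and 1562 and wild-type libraries at 1004 and 1129, while Csf1r and Cd68 are lowest in mutant 14.

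The 3 C1q genes encode the A, B and C chains of C1q, the molecule that tags immune complexes and cell debris and starts the classical complement pathway. They lie side by side on chromosome 4 (136880129 to 136898803, GRCm38, a span of 18.7 kb on the minus strand). C1qa was at 349.9 (library 15) and 445 (library 20) in wild type, against 475 (library 18) and 478 (library 14) in mutant. C1qc was at 386 and 481 in the wild-type pair against 514 and 546 in the mutant pair, in the same order. For both genes wild-type 15 was the lowest library, and wild-type 20 lay closer to the mutant libraries than to wild-type 15. C1qb was at 475 and 559.8 in the wild-type pair against 533 and 579.9 in the mutant pair, so its genotypes overlapped.

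The log2 fold change, mutant minus wild type, was 0.27 for C1qa (SE 0.18), 0.30 for C1qc (SE 0.17) and 0.11 for C1qb (SE 0.16), and none passed (limma, adjusted p = 0.9999 for each). The 95% intervals ran from -0.14 to 0.69 for C1qa, from -0.11 to 0.70 for C1qc and from -0.27 to 0.49 for C1qb. Without wild-type library 15 the values were 0.10, 0.14 and -0.01 for C1qa, C1qc and C1qb, and without wild-type 20 they were 0.45, 0.46 and 0.23. The 3 chains are needed in equal amounts in the C1q molecule, and their mRNA levels stayed near each other in every library. The ratio of C1qa to C1qc was between 0.876 and 0.925 in the 4 libraries, a 1.06-fold spread, whereas C1qa itself varied 1.37-fold. The ratio of C1qc to C1qb was 0.812 and 0.859 in the wild-type pair against 0.964 and 0.942 in the mutant pair, and that of C1qa to C1qb was 0.737 and 0.794 against 0.891 and 0.825. Both ratios to C1qb were higher in each mutant library than in either wild-type library, and neither was tested.

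Mrc1, the mannose receptor (CD206) of resident macrophages and also of lymphatic endothelium, takes up glycoproteins with exposed mannose. It lies on chromosome 2 (14229392 to 14332057). It was at 1129 (library 15) and 1004 (library 20) in wild type, against 1562 (library 18) and 1497 (library 14) in mutant. The mutant mean was 43.4% above the wild-type mean, and the 2 libraries of a genotype lay closer to each other than to either library of the other genotype. The log2 fold change was 0.52 (SE 0.14, 95% interval 0.21 to 0.84), which ranked 157 of 17979 by p and did not pass (limma, adjusted p = 0.618). With any 1 library left out it stayed between 0.44 and 0.61, and the adjusted p over all alternatives ran from 0.479 to 1. Among lymphatic endothelial markers, Prox1 was at 294 and 270.4 in the wild-type pair against 322 and 299.8 in the mutant pair, and Mmrn1 at 456 and 483 against 648 and 627. Foxc2 went the other way, at 175 and 132 against 105 and 115. The list of 10 lymphatic markers had 6 higher and 4 lower (median log2 fold change 0.05). With no overlap, 4 of these markers lay higher and 2 lower (13.4% and 14% of tested genes lay so). Their part in the Mrc1 difference was not tested.

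Adgre1 encodes F4/80, an adhesion-type receptor long used to stain mouse macrophages, and lies on chromosome 17 (57358691 to 57483527). It was at 216 and 239.5 in the wild-type pair against 329.6 and 264 in the mutant pair. Cx3cr1, the receptor for the membrane-bound chemokine Cx3cl1, lies on chromosome 9 (119901616 to 120069879). It was at 413 and 363 in the wild-type pair against 486 and 446 in the mutant pair. For both receptors mutant 18 was the highest library, and the nearest libraries of the 2 genotypes lay closer together than the 2 mutant libraries did. The log2 fold change was 0.37 for Adgre1 (SE 0.20) and 0.26 for Cx3cr1 (SE 0.17), and neither passed (limma, adjusted p = 0.9999 for each). Adgre1 was at 0.21 without mutant 18, and Cx3cr1 at 0.17 without wild-type 20. Exons of Cx3cr1 overlap those of an antisense gene, Gm33858, which was not analysed here. The ligand gene Cx3cl1 overlapped between genotypes, at 162 and 197 in the wild-type pair against 169 and 221 in the mutant pair.

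Csf1r, the receptor tyrosine kinase on which macrophages and osteoclasts depend, had the highest counts of the 10 genes. It lies on chromosome 18 (61100598 to 61132149). It was at 2467 (library 15) and 2935 (library 20) in wild type, at 3653 in mutant 18 and at 2089.6 in mutant 14. The 2 mutant libraries were thus the highest and the lowest of the 4, and wild type lay between them. The log2 fold change was 0.04 (SE 0.25, 95% interval -0.54 to 0.62; limma, adjusted p = 0.9999), and it was -0.36 without mutant 18, -0.09 without wild-type 15, 0.16 without wild-type 20 and 0.44 without mutant 14. Exons of Csf1r overlap those of Hmgxb3 on the opposite strand, and whether the authors counted reads by strand is not stated in the sources used here. Hmgxb3 was at 1057 and 1007 in the wild-type pair against 874 and 1036 in the mutant pair. Its level was lowest where Csf1r was highest.

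Tyrobp (DAP12), the adaptor that carries signals from receptors such as Trem2, lies on chromosome 7 (30413760 to 30417585). It was at 566 and 983 in the wild-type pair against 998 and 727 in the mutant pair, so the genotypes overlapped (log2 fold change 0.19, SE 0.27; limma, adjusted p = 0.9999). Wild-type 15 was the lowest library for Tyrobp, as for 5 of the other macrophage genes. Without wild-type 15 the log2 fold change was -0.21 and without mutant 18 it was -0.04, whereas without wild-type 20 it was 0.59 and without mutant 14 it was 0.42.

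Cd68, a heavily glycosylated protein of the lysosomal membrane, lies on chromosome 11 (69664213 to 69666153). It was at 1121 and 1518 in wild type, at 1444 in mutant 18 and at 778 in mutant 14. The lower mutant mean came from mutant 14, while mutant 18 lay within the wild-type range. The log2 fold change was -0.30 (SE 0.28, 95% interval -0.96 to 0.36; limma, adjusted p = 0.9999), and it turned to 0.15 without mutant 14, and was -0.08 without wild-type 20, -0.52 without wild-type 15 and -0.75 without mutant 18. Lyz2, lysozyme M, which breaks bacterial cell walls and is also made by neutrophils, lies on chromosome 10 (117277331 to 117282321). It was at 677 and 826 in the wild-type pair against 1037 and 870.1 in the mutant pair, with no overlap (log2 fold change 0.34, SE 0.17; limma, adjusted p = 0.9999). That value was 0.20 without wild-type 15 and 0.22 without mutant 18. Its near copy Lyz1, with which it could share reads, was at 2.11 and 1.97 in wild type and listed at 0 in mutant.

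**Figure D2:**
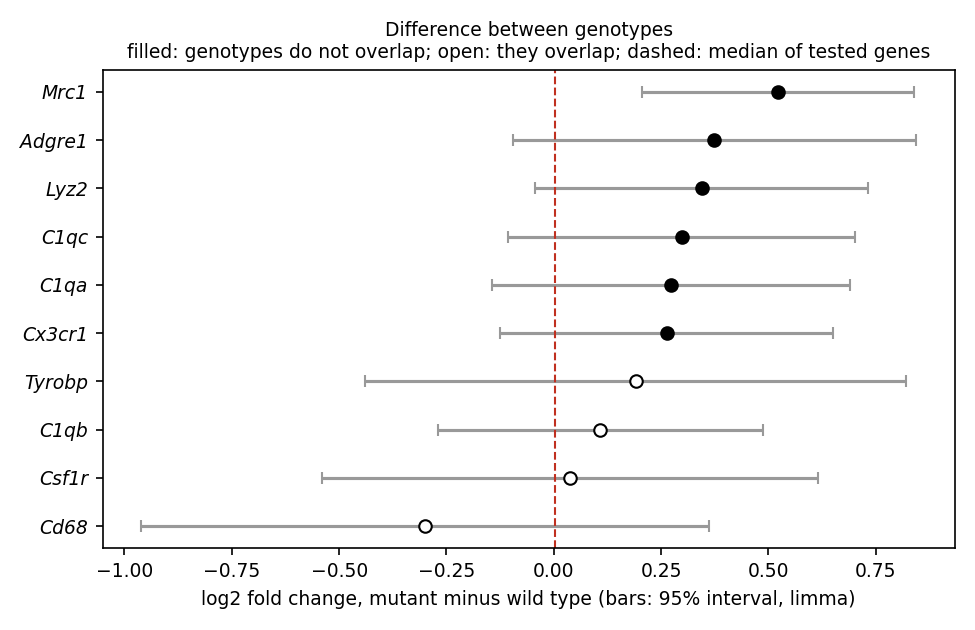
Log2 fold change of each macrophage gene, mutant minus wild type, with its 95% interval from limma, and the median of all tested genes as a dashed line. The interval of Mrc1 (0.21 to 0.84) lies above 0 before adjustment for the number of genes tested, and those of the other 9 genes include 0.

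Counting error was set beside the spread between libraries. If the commonest low value of each library (0.950 to 1.05) stands for 1 read, counting alone gives an error of 1.61% to 6.98% for these genes. The spread over the 4 libraries, as a coefficient of variation, was 8.48% for C1qb and 27.9% for Cd68, the lowest and the highest of the 10. Summed over the 10 genes, the level was 7800 (library 15) and 9355 (library 20) in wild type, against 11032 (library 18) and 8276 (library 14) in mutant. Mutant 18 was the highest library for 6 of the 10 genes, mutant 14 for 3 and wild-type 20 for 1, while wild-type 15 was the lowest for 6, and wild-type 20 and mutant 14 for 2 each. The summed level overlapped between genotypes, and Csf1r made up the largest part of it in each library.

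The 10 genes did not share a single pattern over the libraries. Likeness was taken as the root mean square difference between log2 levels after each gene's own mean was removed, over 4 libraries. C1qa and C1qc were the most alike pair (0.0314), then Adgre1 and Lyz2 (0.0562), and Mrc1 and Cd68 the least alike (0.549). Mutant 14 and wild-type 20 set Mrc1 and Cd68 farthest apart. In mutant 14, Csf1r stood at -0.38 and Cd68 at -0.60 relative to their own log2 means, whereas Mrc1 stood at 0.23, C1qc at 0.19 and C1qa at 0.14. In wild-type 20, Cd68 stood at 0.37 and Tyrobp at 0.30, whereas Mrc1 stood at -0.35 and Cx3cr1 at -0.22. The ratio of Mrc1 to Cd68 was 1.01 (library 15) and 0.661 (library 20) in wild type, 1.08 in mutant 18 and 1.92 in mutant 14.

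Osteoclast genes were also lowest in mutant 14 and highest in mutant 18 when summed. The summed level of 15 osteoclast genes was 49837 (library 15) and 71562 (library 20) in wild type, 83096 in mutant 18 and 39214 in mutant 14. The collagen-cleaving protease Ctsk was at 15154, 25115, 30131 and 12475, and the phosphatase Acp5 at 7199, 12252, 13418 and 6110.1, in the order wild type 15 and 20, mutant 18 and 14. Of the 15 genes, 3 were higher and 12 lower in mutant by log2 fold change, 1 of them (Nfatc1) lower with no overlap (14% of tested genes lay so), and none passed (limma). In a comparison added after the values were seen, Csf1r differed from the mean profile of the osteoclast genes by 0.104 and Cd68 by 0.120, against 0.323 and 0.452 from that of the resident macrophage genes. Tyrobp stood at 0.234 and 0.304. From the mean profile of the pan-leukocyte genes, Csf1r differed by 0.195, Cd68 by 0.317 and Tyrobp by 0.274. The other 7 macrophage genes differed from the osteoclast profile by 0.318 to 0.479 and from the resident macrophage profile by 0.0806 to 0.156. From the pan-leukocyte profile these 7 differed by 0.137 to 0.246. These are descriptions over 4 libraries, and the part of osteoclast RNA in the Csf1r and Cd68 values was not tested.

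**Figure D3:**
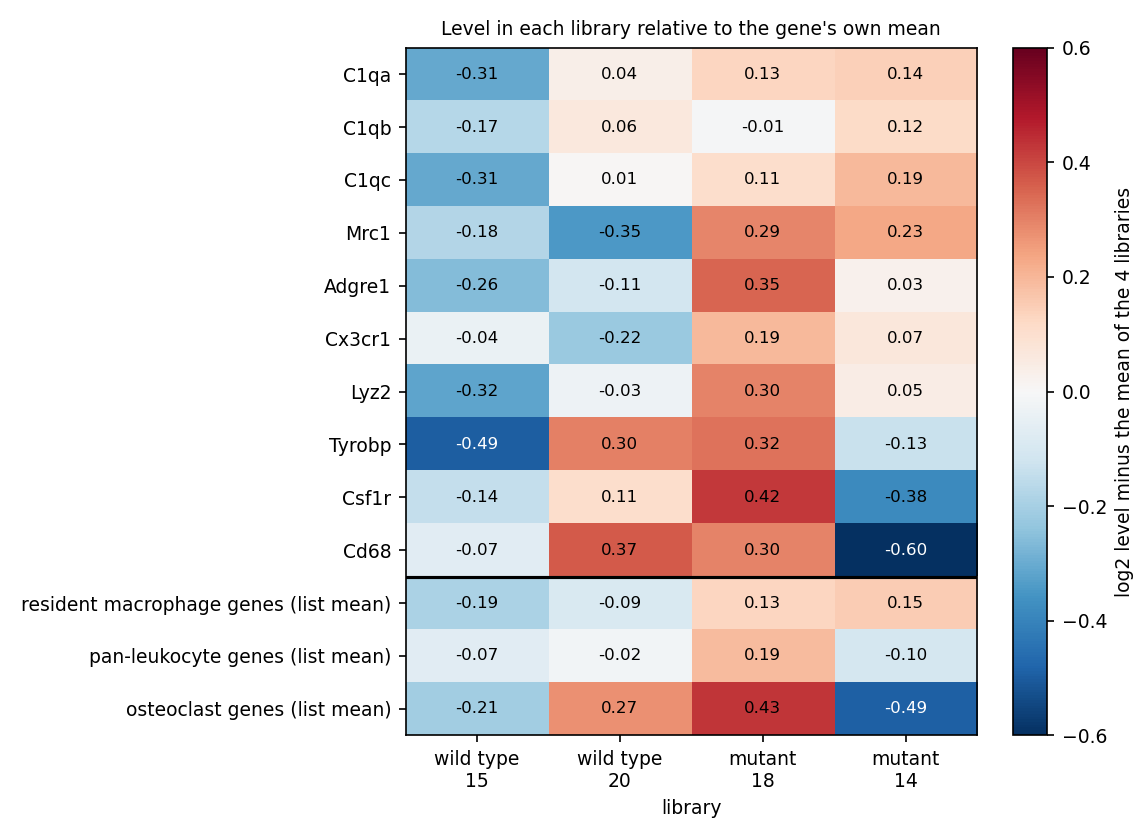
Log2 level of each macrophage gene in each library relative to that gene's mean over the 4 libraries, above the same for the mean of 3 gene lists, with blue for lower and red for higher. In the mutant 14 column Csf1r (-0.38), Cd68 (-0.60) and the osteoclast list (-0.49) are low, while C1qa, C1qc and Mrc1 are 0.14 to 0.23 above their means.

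Per kilobase of the longest coding transcript (GENCODE M21), Tyrobp had the highest mean level over the 4 libraries, at 1371 normalized counts per kb, followed by Cd68 (988), Lyz2 (648), Csf1r (593), C1qb (493), C1qa (420.1), C1qc (400.3), Mrc1 (242), Cx3cr1 (95.1) and Adgre1 (81.0). The ranges of neighbours in this order overlapped, except that the range of C1qc (320.7 to 454) lay above that of Mrc1 (187 to 291), and that of Mrc1 above that of Cx3cr1 (80.9 to 108). Within each single library, Tyrobp also lay above Cd68, C1qb above C1qa, C1qa above C1qc and Cx3cr1 above Adgre1. The isoform in use is not known from the table, so these levels depend on the transcript chosen. Csf1r, Cx3cr1 and Adgre1 have 4, 3 and 5 annotated coding transcripts.

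**Figure D4:**
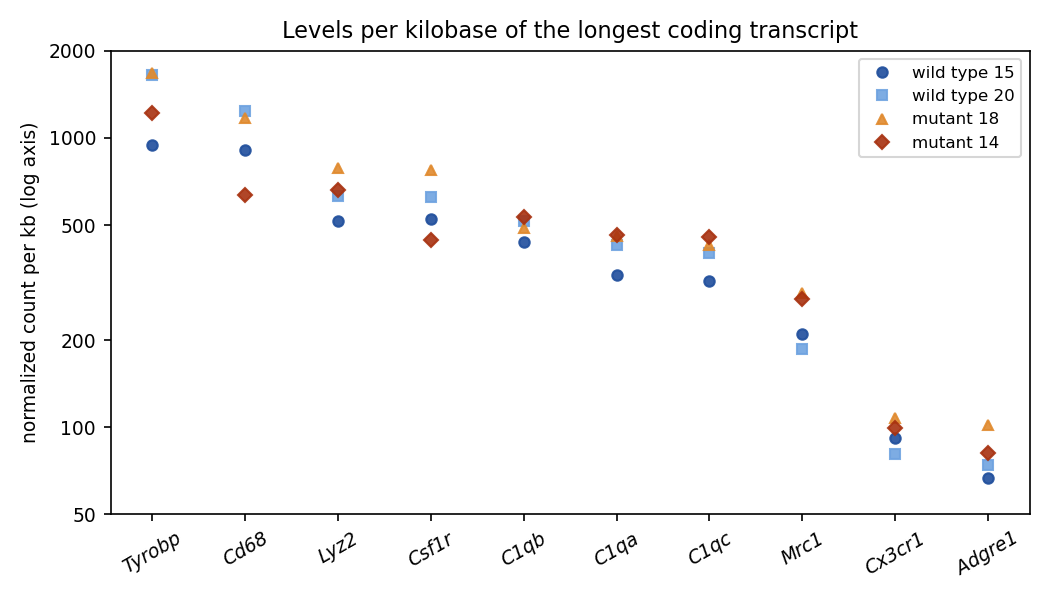
Normalized count per kb of the longest coding transcript (log axis) for each macrophage gene in each library, ordered by the mean. Tyrobp and Cd68 are highest (means 1371 and 988) and Cx3cr1 and Adgre1 lowest (95.1 and 81.0).

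Other genes of macrophage biology were counted in lists from which the 10 genes were removed. Resident macrophage genes had 17 of 21 tested members higher in mutant, 10 of them with no overlap, and 4 lower, 2 with no overlap (median log2 fold change 0.28). Over all tested genes, 50.6% lay higher and 49.4% lower, 13.4% higher with no overlap and 14% lower with no overlap. The clotting transglutaminase subunit F13a1 had the smallest p of that list, at 1769 and 1689 in the wild-type pair against 2376 and 2325 in the mutant pair (log2 fold change 0.44, SE 0.13; limma, adjusted p = 0.695), with both mutant values above both wild-type values, as for Mrc1. The other genes named by level were the selenium carrier Selenop (4055 and 4406 against 5861 and 5162), the growth factor Igf1 (9922 and 8993 against 10483 and 9373) and the Mertk ligand Gas6 (2572 and 2436 against 2376 and 2293), which lay lower. Selenop and Igf1 lay above all 10 macrophage genes in each library (highest value of the 10, 3653). Which cells made the RNA of these listed genes was not tested. Phagocytic and Fc receptors had 14 of 20 higher and 6 lower (median 0.16), with the scavenger receptor Msr1 at 136 and 141 in the wild-type pair against 193 and 208 in the mutant pair. Mrc2, among the most abundant of that list, lay lower, at 6957 and 6384 against 5780 and 5410. No member of any list named here passed (limma), so these counts describe the sign of the log2 fold change only.

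Of the Csf1r ligands and myeloid transcription factors, 6 of 17 were higher and 11 lower, and 3 lay higher and 6 lower with no overlap (13.4% and 14% of tested genes lay so). Their median log2 fold change was -0.03, and the 2 ligands differed in direction. The ligand Csf1 was at 2141 and 2143 in the wild-type pair against 1829 and 1625 in the mutant pair, and the second ligand Il34 at 65.6 and 54.6 against 80.2 and 80.03. Spi1, which encodes PU.1, was at 432 and 497 in the wild-type pair against 386 and 316 in the mutant pair (log2 fold change -0.41, SE 0.18; limma, adjusted p = 0.9999). Csf1 and Spi1 thus lay lower in both mutant libraries than in both wild-type libraries, where 6 of the 10 macrophage genes lay higher. Of the Tyrobp partners and the enzymes after it, 7 of 19 were higher and 12 lower (median -0.07), with Trem2 overlapping (62.6 and 45.4 against 53.1 and 59.4). Csf1, Il34, Spi1 and Trem2, and Cx3cl1 and Prox1 above, were chosen for their roles and not by the rule for named genes, and Foxc2 after its values were seen.

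Complement genes other than C1q were split, 9 higher and 7 lower of 16 (median 0.11), and the receptors for complement fragments were 5 higher and 3 lower of 8 (median 0.06). The central component C3 was at 662 and 132 in the wild-type pair against 73.3 and 115 in the mutant pair, so wild-type 15 stood apart from the other libraries. Lysosome genes were 11 higher and 11 lower of 22 (median 0.0012), with the protease Ctsd at 7355 and 8099 in the wild-type pair against 9495 and 9405 in the mutant pair. Psap, among the most abundant of that list, lay lower, at 12410 and 12184 against 12044 and 12130. Inflammatory cytokine and activation genes were 15 higher and 6 lower of 21 (median 0.18). There the cytokine Il1a was at 15.95 and 14.7 against 56.5 and 46.2 and the lectin Lgals3 at 1547 and 2034 against 2306 and 2454. Spp1, among the most abundant of that list, overlapped with a lower mutant mean, at 61080 and 93203 against 82045 and 37150.5. Chemokine genes were 9 higher and 6 lower of 15 (median 0.11).

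Markers of other cells were set beside these values. Pan-leukocyte genes were 10 higher and 6 lower of 16 (median 0.07), and Ptprc (CD45), chosen for its role, overlapped at 328 and 301 in the wild-type pair against 376 and 269 in the mutant pair. Monocyte genes were 9 higher and 6 lower of 15 (median 0.03), genes best known from microglia 4 and 4 of 8 (median 0.05), antigen presentation and dendritic cell genes 12 and 3 of 15 (median 0.18) and lymphoid genes 6 and 6 of 12 (median 0.07). Mast cell genes were 12 higher and 2 lower of 14 (median 0.49). With no overlap, 9 of them lay higher and 1 lower (13.4% and 14% of tested genes lay so). The summed mast cell level was 6369 and 7116 in the wild-type pair against 8292 and 12641 in the mutant pair. Neutrophil genes, whose cells also make Lyz2, were 11 higher and 4 lower of 15 (median 0.25). Their summed level was 911 and 844 in the wild-type pair against 1039 and 1089 in the mutant pair. The marker Ly6g was at 0 in all 4 libraries, but other genes of the list were detected. S100a9 was at 201 and 241 in the wild-type pair against 276 and 278 in the mutant pair, and Ngp at 125 and 80.7 against 78.1 and 57.8. Lymphatic endothelial genes were 6 higher and 4 lower of 10 (median 0.05) and blood endothelial genes 4 and 8 of 12 (median -0.06). Erythroid genes were 6 higher and 4 lower of 10 (median 0.05). Their summed level was 260060 and 112360 in the wild-type pair against 108900 and 270000 in the mutant pair, so it differed widely within each genotype. The dental arch tissue genes were 5 higher and 10 lower of 15 (median -0.34). Of the dental arch genes, 0 lay higher and 8 lower with no overlap (13.4% and 14% of tested genes lay so). Barx1, for example, was at 955 and 1030 in the wild-type pair against 588 and 579 in the mutant pair. The part of these cell types and of the dental arch tissue in the macrophage gene values was not tested.

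The genes most like the mean profile of the 10 over the 4 libraries were named by the same root mean square difference, among 13120 tested genes with a mean of at least 50. They were Srpx (0.00699), Atg10 (0.00768), Cept1 (0.00905), the methylmalonyl-CoA mutase gene Mut (0.0132), Fh1 (0.0136) and Zfp958 (0.0139). Srpx, for example, was at 1573 and 1865 in the wild-type pair against 2182 and 1828 in the mutant pair. Among 218 genes of the lists, the closest were the lysosomal protease Ctsl (0.0439), the angiopoietin receptor Tek (0.0442), the neutrophil protein S100a8 (0.0495), and the lysosomal genes Ctsc (0.0632), Ctsa (0.0663) and Lamp2 (0.0692). Likeness over 4 libraries is a description only.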

How the data were processed

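RNA was extracted by column and sequenced as stranded, polyadenylated libraries, per the labels' protocols. Values in the deposited table are signal: fractional gene counts that the authors had already scaled between libraries. The submitters' processing notes name DESeq2 and mm10. For the aligner, counter, strand setting and annotation, none is given in the sources used here. Whole reads could not be recovered, since 32.3% to 35.0% of values above 0 were whole multiples (tolerance 0.1) of a library's commonest low value.

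Values were taken as log2(value + 0.5), rows with a mean of at least 1 were kept (17979 of 24972), and genotype was fitted with limma 3.58.1 (R 4.3.3) with a mean-variance trend. Fold changes are on that scale, so small counts give understated changes. Benjamini-Hochberg adjustment ran over all tested rows. For 2 libraries against 2, the smallest p of an exact permutation test (two-sided) is 0.333, so no such test was used. The fit was also run on simulated data, with larger changes than any macrophage gene showed between genotypes. That run does not show how the fit handles differences as small as these. Alternatives covered scaling, filter, pseudocount, variance model and each library left out.

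The 10 genes, the 21 other lists and the tests were chosen with earlier results of these data known. From each list the 3 genes with the highest mean and the gene with the smallest p could be named, and those given are a part of these. Of the listed symbols, 5 had no row. Positions and transcript lengths are from GENCODE M21 (GRCm38), promoters from RefSeq.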

Additional observations from a re-analysis of the deposited data

How the results depend on the processing

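No macrophage gene passed (limma) under any of the 13 alternatives, 130 values in all, and 124 kept their direction. The filter and variance model alternatives leave a gene's log2 fold change as it is, so its direction could not turn there. Median-of-ratios scaling, 1 of the 3 rescalings, gave the values of the main fit again. The 6 that turned all came from leaving out 1 library. C1qb lay between -0.0102 and 0.227, Csf1r between -0.36 and 0.44, Cd68 between -0.75 and 0.15 and Tyrobp between -0.21 and 0.59, while the other 6 genes were higher in mutant in every such fit. The median over the 10 genes was 0.12 without wild-type 15, 0.44 without wild-type 20, 0.21 without mutant 18 and 0.37 without mutant 14. The number of genes higher with no overlap was 6 under the 3 rescalings, where 13.4% to 14.2% of tested genes lay so. It was between 6 and 8 with 1 library left out, where 29.9% to 33.0% of tested genes lay so. Lower with no overlap were 2 of the 10 without mutant 18, 1 without wild-type 15 and 0 in the other fits. The share of all tested genes that lay lower was not counted for these fits. These counts were added after the data were seen.

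Over all genes, 2 passed, against 1 with no filter, 4 with pseudocount 1, 1 with no mean-variance trend, 4 with robust moderation and 0 to 5 with 1 library left out. The cause was not tested. No paired analysis was possible because the sample codes are not shared between genotypes.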
